A study of Mus musculus with 16 samples.

Results

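The S100 genes encode small calcium binding proteins, and 8 of them were followed here in neural stem/progenitor cells (NSPCs) of the mouse subventricular zone (SVZ): *S100a1*, *S100a4*, *S100a6*, *S100a10*, *S100a11*, *S100a13*, *S100a16* and *S100b*. They were taken by symbol from the deposited expression table, which lists 17 S100 family genes among 30386 genes. *S100a13* was selected on its low CPM in *Dbx2*-NSPCs relative to *GFP*-NSPCs, and the other 7 members were chosen by family name and level. The lowest of them, *S100a6*, averaged 0.979 CPM over all samples, and *S100a3*, just outside, averaged 0.63 CPM. The 8 samples of *Dbx2*-NSPCs carried a constitutive transgene for the homeodomain transcription factor DBX2, and the 8 samples of *GFP*-NSPCs carried a control transgene for green fluorescent protein. All 16 samples were proliferating non-adherent cultures of NSPC lines derived from C57BL/6 J/Babr mice of 3 months of age. The transgenic lines had been selected with puromycin, and more than 1 pair of lines was used. RNA was sequenced from the 3′ end of polyadenylated transcripts, so that a level in CPM, the reads of a gene scaled to the total of its library, counts transcript ends and was compared between samples of a gene, not between genes.

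S100 proteins are built around a pair of EF-hands, helix-loop-helix motifs that hold calcium, and most of them work as dimers. Calcium opens a hydrophobic face on the dimer, through which it binds a partner such as an annexin, a myosin heavy chain or a cell surface receptor. Most S100 genes lie in a single cluster of the genome, part of the epidermal differentiation complex, whereas *S100b* lies elsewhere and is best known as a marker of astrocytes. In the SVZ, astrocyte-like stem cells and their progeny express several members of the family.

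The labels number the samples of each transgene 1 to 8 but do not name the cell line. Samples 1 to 4 and samples 5 to 8 are described apart as well as together, because earlier results of these data had shown them to differ. That division is by number and is not a label of the cell line. The libraries held 1804660 to 3294873 reads. A floor of 3 reads was set for detection, which is 0.911 to 1.66 CPM depending on the library. This floor covers counting error only. *Dbx2* itself was at 114 to 232 CPM in *Dbx2*-NSPCs and at 30.7 to 171 CPM in *GFP*-NSPCs, where replicates 1 to 4 were at 89.3 CPM or more and replicates 5 to 8 at 39.5 CPM or less. Its mean went from 120 ± 35.6 to 173 ± 41.4 CPM with the *Dbx2* transgene in replicates 1 to 4, where samples of the groups overlapped. In replicates 5 to 8 it went from 34.0 ± 3.96 to 136 ± 16.9 CPM without overlap. The 10 markers of neural stem and progenitor cells fixed as a list were all detected, at a summed level of 6895 to 8452 CPM in *GFP*-NSPCs against 5642 to 7191 CPM in *Dbx2*-NSPCs, and 5 of the 10 were called lower in *Dbx2*-NSPCs by the test described below for the paralogs, which called 7.78% of all tested genes lower and 8.03% higher. Of the markers of other cells, 2 of 3 tested oligodendrocyte and 1 of 3 ependymal genes were called higher, and 0 of 2 endothelial genes were called. The oligodendrocyte list held 6 genes, of which *Mbp*, *Mog* and *Mag* did not reach the filter for testing. *Mobp* is counted among the oligodendrocyte calls, and its mean CPM was 0.12 for the control transgene against 2.49 for *Dbx2*. It reached that filter only through *Dbx2*-NSPC samples, so its values are a description with no test. The other oligodendrocyte call was *Cnp*. Of 6 tested neuronal genes, 1 was called lower over all samples. In replicates 1 to 4, however, 4 were lower and 0 higher, beside 7.37% and 8.19% of all tested genes. In replicates 5 to 8, 1 was lower and 2 were higher, beside 11.7% and 11.5%. The part of such cells in the results was not tested. These are bulk samples, in which fewer cells of a type and less RNA per cell cannot be told apart.

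Of the 8 members, 7 lie on chromosome 3 in the GRCm38 annotation, in a pair of groups whose starts, from *S100a13* to *S100a11*, are 3006.1 kb apart, and *S100b* lies on chromosome 10. *S100a1* (ENSMUSG00000044080, minus strand, 90511034 to 90514392) and *S100a13* (ENSMUSG00000042312, plus strand, 90514435 to 90524581) are arranged head to head, with 42 bases between them. *S100a16* (plus strand, 90537254 to 90543151), *S100a4* (plus strand, 90603771 to 90606045) and *S100a6* (plus strand, 90612882 to 90624181) follow on the same side. *S100a11* (plus strand, 93520488 to 93526287) and *S100a10* (plus strand, 93555080 to 93564643) form the distant group, with 28.8 kb between them. *S100b* (chromosome 10, plus strand, 76253853 to 76261159) overlaps *Dip2a* (17.6 CPM on average) on the opposite strand, and the strand used in counting is not given in the sources used here.

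Promoter windows of 300 bases, from 250 before to 50 after a RefSeq transcript start in GRCm38.p6, were found for 7 of the 8 members. The windows of *S100a13* and *S100a1* are shown because these neighbours share 204 bases of them on opposite strands, and those of *S100a4* and *S100a11* because the former rose in both sets of samples and the latter turned from higher to lower between them. They are printed 5′ to 3′ on the strand of the gene. Capitals mark TATAAA, the core of a TATA box, GGGCGG, a GC box, and TAAT, the core that many homeodomain proteins bind, each searched on both strands.
S100a13, chr3:90514185-90514484, plus strand: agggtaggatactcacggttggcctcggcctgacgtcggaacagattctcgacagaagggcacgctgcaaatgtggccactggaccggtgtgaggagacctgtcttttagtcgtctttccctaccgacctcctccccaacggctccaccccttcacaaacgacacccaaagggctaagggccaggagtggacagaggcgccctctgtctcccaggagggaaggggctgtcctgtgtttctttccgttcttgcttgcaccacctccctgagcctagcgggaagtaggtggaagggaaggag
S100a1, chr3:90514281-90514580, minus strand: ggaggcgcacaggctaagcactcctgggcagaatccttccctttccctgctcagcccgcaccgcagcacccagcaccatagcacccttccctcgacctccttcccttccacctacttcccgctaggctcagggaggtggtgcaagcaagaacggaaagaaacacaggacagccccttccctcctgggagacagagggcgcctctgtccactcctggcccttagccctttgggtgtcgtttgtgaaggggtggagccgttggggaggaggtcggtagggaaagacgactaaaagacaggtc
S100a4, chr3:90603520-90603819, plus strand: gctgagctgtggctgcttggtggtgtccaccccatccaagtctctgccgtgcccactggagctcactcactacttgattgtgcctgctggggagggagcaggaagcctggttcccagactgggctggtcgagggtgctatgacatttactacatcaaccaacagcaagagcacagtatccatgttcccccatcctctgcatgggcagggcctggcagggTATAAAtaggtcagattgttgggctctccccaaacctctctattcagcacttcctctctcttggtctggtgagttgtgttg
S100a11, chr3:93520246-93520545, plus strand: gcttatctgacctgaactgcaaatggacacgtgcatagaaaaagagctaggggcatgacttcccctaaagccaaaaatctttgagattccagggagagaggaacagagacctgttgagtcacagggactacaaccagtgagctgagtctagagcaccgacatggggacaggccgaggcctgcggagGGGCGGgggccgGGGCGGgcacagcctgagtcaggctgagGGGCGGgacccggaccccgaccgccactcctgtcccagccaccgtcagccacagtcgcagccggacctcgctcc
The windows of *S100a13* and *S100a1* held none of these motifs. That of *S100a4* held 1 TATAAA, which 13.6% of 32841 promoter windows of the same length hold, and that of *S100a11* held 3 GGGCGG, which 35.7% of the windows hold at least once. TAAT, present in 58.0% of all windows, was in the windows of *S100a6* and *S100b* and not in the other members' windows. The window of *S100a13* had a GC content of 59.3% with 14 CpG, and that of *S100a11* 61.7% with 15 CpG, against medians of 52.7% and 7 over all windows. A match of letters is a description and does not show binding.

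*S100a13*, which takes part in the unconventional release of FGF1 from cells, was at the edge of detection in *Dbx2*-NSPCs. Its level in *GFP*-NSPCs was 17.73, 21.87, 14.01 and 14.33 CPM in replicates 1 to 4 and 22.72, 28.83, 24.25 and 27.55 CPM in replicates 5 to 8. In *Dbx2*-NSPCs it was 0.96, 1.52, 1.63 and 1.08 CPM in replicates 1 to 4 and 2.11, 0, 0.45 and 1.01 CPM in replicates 5 to 8. The groups were far apart in both sets of samples, and no *Dbx2*-NSPC sample came near the lowest *GFP*-NSPC sample. The means were 21.4 ± 5.62 CPM and 1.10 ± 0.670 CPM (SD, n = 8 each). Summed over the libraries, 465 reads stood against 26, a level 19.3-fold lower in *Dbx2*-NSPCs with a 95% counting interval of 12.99 to 29.8. Because *S100a13* was chosen for this difference, the values are given as a description with no test.

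The fall of *S100a13* had the same direction in both sets. In replicates 1 to 4, the mean went from 17.0 ± 3.67 to 1.298 ± 0.327 CPM, a log2 fold change of -3.28 (SE 0.279). In replicates 5 to 8, it went from 25.8 ± 2.84 to 0.893 ± 0.911 CPM, a log2 fold change of -4.49 (SE 0.417), and over all samples the log2 fold change was -3.88 (SE 0.293). These folds are on the scale of log2(CPM + 0.5), and since several *Dbx2*-NSPC samples lie at or under the floor, their size depends on the pseudocount, from -2.91 with 2 to -4.52 with 0.1 over all samples. Within *GFP*-NSPCs, the samples of replicates 5 to 8 lay above those of replicates 1 to 4 with no overlap. That difference between the control sets was 0.61 on the log2 scale (SE 0.366, limma adjusted p = 0.231). The fit took 1 spread from all 16 samples, including *Dbx2*-NSPC samples near the floor. Its SE ran from 0.225 with a pseudocount of 2 to 0.583 with 0.1, so this p does not measure the spread of the control samples alone. The remnant in *Dbx2*-NSPCs was too low to order the sets.

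**Figure D1:**
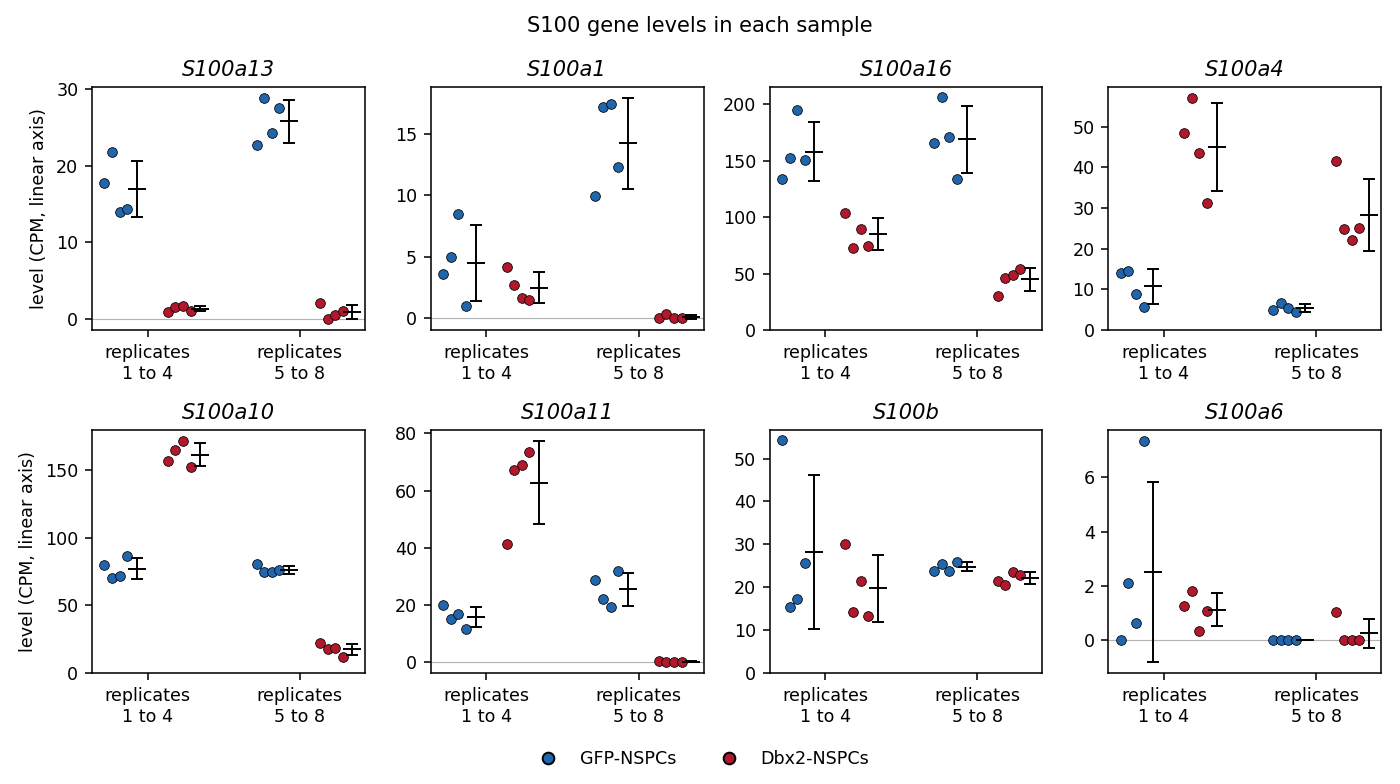
Level of each S100 gene in CPM on a linear axis, in GFP-NSPCs (blue) and Dbx2-NSPCs (red), with each point a sample and the bar beside each 4 points their mean ± SD. S100a13 is near 0 in all 8 Dbx2-NSPC samples, S100a4 is higher and S100a16 lower in both sets, S100a10 and S100a11 are higher in replicates 1 to 4 and lower in replicates 5 to 8, and S100b overlaps in replicates 1 to 4 and lies slightly lower, without overlap, in replicates 5 to 8.

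The paralogs did not share a single pattern. Over all 16 samples, 1 of the 7 paralogs was higher (*S100a4*) and 2 were lower (*S100a1* and *S100a16*) in *Dbx2*-NSPCs by limma at an adjusted p under 0.05, against 8.03% and 7.78% of the 12533 tested genes (15.8% in either direction). Within replicates 1 to 4, 3 paralogs were higher and 1 was lower, against 8.19% and 7.37% of all genes (15.6%), and within replicates 5 to 8, 1 was higher and 4 were lower, against 11.5% and 11.7% (23.2%). The median log2 fold change over all tested genes was -0.022, -0.037 and -0.012 in these comparisons. The members were chosen with earlier results of these data known, so each adjusted p here says where a gene stands among the tested genes and is no independent support for the choice.

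*S100a1*, the divergent neighbour of *S100a13* and a regulator of calcium cycling in muscle that is also made in the brain, differed between the sets. Its level in replicates 1 to 4 was 3.63, 4.94, 8.47 and 1 CPM in *GFP*-NSPCs against 4.17, 2.73, 1.63 and 1.44 CPM in *Dbx2*-NSPCs. In replicates 5 to 8, it was 9.97, 17.18, 17.42 and 12.34 CPM in *GFP*-NSPCs against 0, 0.31, 0 and 0 CPM in *Dbx2*-NSPCs. The samples overlapped in the former set and were fully apart in the latter, where 155 reads stood against 1, a ratio of 167 with a 95% counting interval of 29.5 to 6641. The log2 fold change was -0.57 (SE 0.513, limma adjusted p = 0.506) in replicates 1 to 4 and -4.67 (SE 0.337, limma adjusted p = 3.33e-07) in replicates 5 to 8. The difference between these contrasts was -4.10 (SE 0.624, limma adjusted p = 4.80e-05), and its size ran from -6.00 with a pseudocount of 0.1 to -2.50 with 2. Over all samples the log2 fold change was -2.62 (SE 0.566, limma adjusted p = 0.00340; exact permutation p = 0.00233), a value that joins 2 sets in which the gene behaved differently. Set against each other, the fold of *S100a13* was lower than that of *S100a1* by 2.71 on the log2 scale in replicates 1 to 4. Both genes were near or under the floor in *Dbx2*-NSPC replicates 5 to 8 and their folds cannot be ordered, since *S100a13* was at -5.41 and *S100a1* at -6.62 with a pseudocount of 0.1, and at -3.31 and -2.94 with a pseudocount of 2.

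*S100a16*, a widely expressed member of the family and the next tested gene after *S100a13* in the cluster, fell in both sets. In *GFP*-NSPCs, its level was 133.75, 152.72, 195.5 and 150.96 CPM in replicates 1 to 4 and 165.68, 206.42, 171.1 and 133.65 CPM in replicates 5 to 8. In *Dbx2*-NSPCs, it was 103.7, 73.14, 89.55 and 74.27 CPM and then 30.62, 46.59, 48.76 and 54.02 CPM. The transgene groups did not overlap in either set or over all samples, and of all tested genes 3.41% showed no overlap over all samples. The mean went from 164 ± 26.7 CPM to 65.1 ± 24.4 CPM (SD over 8 samples), and the log2 fold change was -1.40 (SE 0.193, limma adjusted p = 5.04e-05). An exact permutation test over all splits of 8 against 8 samples, 2-sided, gave p = 0.000155, the smallest it can give. For every member, this test exchanged samples freely across the sets and took the cultures of few lines as separate units. The fall was -0.89 (SE 0.144, limma adjusted p = 0.00153) in replicates 1 to 4 and -1.91 (SE 0.165, limma adjusted p = 1.77e-06) in replicates 5 to 8, and the difference of -1.02 (SE 0.228) passed the test as well (limma adjusted p = 0.00357). In order of level, both *GFP*-NSPC sets came first and did not differ beyond their spread, followed by *Dbx2*-NSPC replicates 1 to 4 and then *Dbx2*-NSPC replicates 5 to 8.

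*S100a4*, which binds non-muscle myosin and is linked to cell motility, was the paralog that rose in both sets. In *GFP*-NSPCs, its level was 14.1, 14.46, 8.8 and 5.67 CPM in replicates 1 to 4 and 4.99, 6.75, 5.46 and 4.52 CPM in replicates 5 to 8. In *Dbx2*-NSPCs, it was 48.48, 57.06, 43.63 and 31.22 CPM and then 41.53, 24.85, 22.12 and 24.99 CPM. Every *Dbx2*-NSPC sample lay above every *GFP*-NSPC sample. The mean went from 8.09 ± 4.04 to 36.7 ± 12.8 CPM, a log2 fold change of 2.16 (SE 0.259, limma adjusted p = 1.13e-05; exact permutation p = 0.000155, the smallest possible). The rise was 2.07 (SE 0.288, limma adjusted p = 5.84e-04) in replicates 1 to 4 and 2.25 (SE 0.234, limma adjusted p = 9.38e-06) in replicates 5 to 8. The difference between them was 0.18, with a 95% interval of -0.59 to 0.95, and did not pass the test (limma adjusted p = 0.840). *S100a4* is also made by fibroblasts and leukocytes, so the markers of those cells are given beside it. The 6 fibroblast and pericyte markers summed to at most 3.73 CPM and the 7 microglia and macrophage markers to at most 2.45 CPM in any sample, with no marker of either list reaching the filter for testing. The starts of *S100a13* and *S100a4* are 89.3 kb apart, and the former was below and the latter above its *GFP*-NSPC range in every sample of *Dbx2*-NSPCs.

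*S100a10* and *S100a11*, the annexin-binding members in the distant group, turned opposite ways in the 2 sets. *S100a10*, also called p11, is the partner of annexin A2 and has lost the ability to bind calcium. In replicates 1 to 4, its level was 80.17, 70.19, 72.01 and 86.64 CPM in *GFP*-NSPCs against 157, 164.8, 171.61 and 152.13 CPM in *Dbx2*-NSPCs. In replicates 5 to 8, it was 80.9, 74.84, 74.45 and 76.08 CPM in *GFP*-NSPCs against 22.17, 18.02, 18.51 and 12.15 CPM in *Dbx2*-NSPCs. *GFP*-NSPCs thus held 1 level in both sets, and the *Dbx2*-NSPC samples lay wholly above it in one set and wholly below it in the other. Of all tested genes, 19.6% showed no overlap between the transgenes in replicates 1 to 4 and 24.8% in replicates 5 to 8. The log2 fold change was 1.06 (SE 0.102, limma adjusted p = 4.40e-05) in replicates 1 to 4 and -2.11 (SE 0.161, limma adjusted p = 5.10e-07) in replicates 5 to 8, and the difference was -3.17 (SE 0.193, limma adjusted p = 2.38e-11).

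*S100a11*, which binds annexin A1, had the same pattern with a wider swing. In replicates 1 to 4, its level was 19.74, 15.17, 16.62 and 11.33 CPM in *GFP*-NSPCs against 41.42, 67.07, 69.03 and 73.56 CPM in *Dbx2*-NSPCs. In replicates 5 to 8, it was 28.81, 22.08, 19.12 and 31.67 CPM in *GFP*-NSPCs against 0.35, 0, 0 and 0 CPM in *Dbx2*-NSPCs. *Dbx2*-NSPCs were highest of all groups in the former set and at or below the floor in the latter, where 257 reads stood against 1, a ratio of 277 with a 95% counting interval of 49.3 to 10984. The log2 fold change was 1.96 (SE 0.215, limma adjusted p = 1.11e-04) in replicates 1 to 4 and -5.48 (SE 0.318, limma adjusted p = 5.28e-08) in replicates 5 to 8, with a difference of -7.43 (SE 0.368, limma adjusted p = 6.09e-13). With 1 read in *Dbx2*-NSPC replicates 5 to 8, the size of this fall is set by the pseudocount and ran from -7.42 with 0.1 to -3.69 with 2, and the difference from -9.41 to -5.55. Of all tested genes, 0.934% were likewise called higher in replicates 1 to 4 and lower in replicates 5 to 8, and 1.47% were called in opposite directions in either order. How reads shared with the annotated pseudogene *S100a11-ps* were counted is not given in the sources used here.

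A comparison over all samples hides both genes. The pooled log2 fold change was -0.52 (SE 0.522, limma adjusted p = 0.550; exact permutation p = 0.426) for *S100a10* and -1.76 (SE 1.11, limma adjusted p = 0.311; exact permutation p = 0.175) for *S100a11*. On recovered reads, edgeR gave pooled values of the other sign, 0.26 and 0.67, without a covariate, and -0.29 and -0.13 with the number set as one. No direction can therefore be given for either gene over all samples. The levels of the neighbours followed each other over the 16 samples (Pearson r = 0.976 on the log2 scale), a description of samples that share their line, transgene and library preparation.

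**Figure D2:**
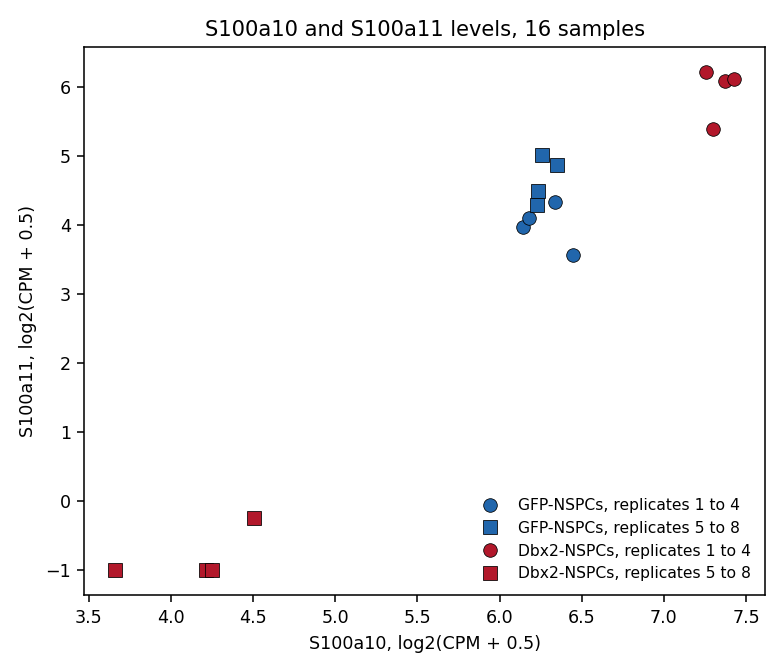
Level of S100a11 against that of S100a10 in each of the 16 samples, both as log2(CPM + 0.5), with GFP-NSPCs in blue, Dbx2-NSPCs in red, circles for replicates 1 to 4 and squares for replicates 5 to 8. The GFP-NSPC samples form 1 cloud, with Dbx2-NSPC replicates 1 to 4 above and to the right of it and Dbx2-NSPC replicates 5 to 8 far below and to the left.

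*S100b*, the astrocyte-associated member on chromosome 10, showed no change that passed the test. In *GFP*-NSPCs, its level was 54.39, 15.52, 17.27 and 25.66 CPM in replicates 1 to 4 and 23.83, 25.46, 23.91 and 25.91 CPM in replicates 5 to 8. In *Dbx2*-NSPCs, it was 30.18, 14.26, 21.49 and 13.28 CPM and then 21.47, 20.5, 23.48 and 22.96 CPM. The groups overlapped in replicates 1 to 4, where *GFP*-NSPC replicate 1 stood high. In replicates 5 to 8 every *Dbx2*-NSPC sample was just below every *GFP*-NSPC sample, a separation that, as given above, 24.8% of all tested genes showed there. The log2 fold change was -0.28 (SE 0.213, limma adjusted p = 0.416; exact permutation p = 0.258), and it was -0.39 (limma adjusted p = 0.528) and -0.16 (limma adjusted p = 0.445) within the sets. The other astrocyte markers, 6 genes that include *Gfap*, summed to 825 to 1150 CPM in *GFP*-NSPCs against 780 to 1043 CPM in *Dbx2*-NSPCs in replicates 1 to 4. Of these 6, 2 were called higher and 2 lower there, beside 8.19% and 7.37% of all tested genes. They summed in replicates 5 to 8 to 433 to 515 CPM against 876 to 983 CPM with no overlap, with 4 called higher and 2 lower beside 11.5% and 11.7% of all tested genes, and *S100b* was not called there. That sum rose with *Aldoc*, from 171 to 693 CPM on average, and does not stand for the list. *Gja1* (61.9 to 0.35 CPM) and *Aldh1l1* (177 to 88.8 CPM) fell there and were the 2 called lower in both sets.

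*S100a6*, or calcyclin, known as a marker of SVZ stem cells and young astrocytes, was barely detected. In *GFP*-NSPCs, its level was 0, 2.12, 0.65 and 7.33 CPM in replicates 1 to 4 and 0 CPM in all of replicates 5 to 8. In *Dbx2*-NSPCs, it was 1.28, 1.82, 0.33 and 1.08 CPM and then 1.06, 0, 0 and 0 CPM. Most samples lay at or under the floor, with 30 reads in all of *GFP*-NSPCs and 17 in all of *Dbx2*-NSPCs, so no fold is given, and a difference was not detectable at this depth (limma adjusted p = 0.960; exact permutation p = 0.924).

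**Figure D3:**
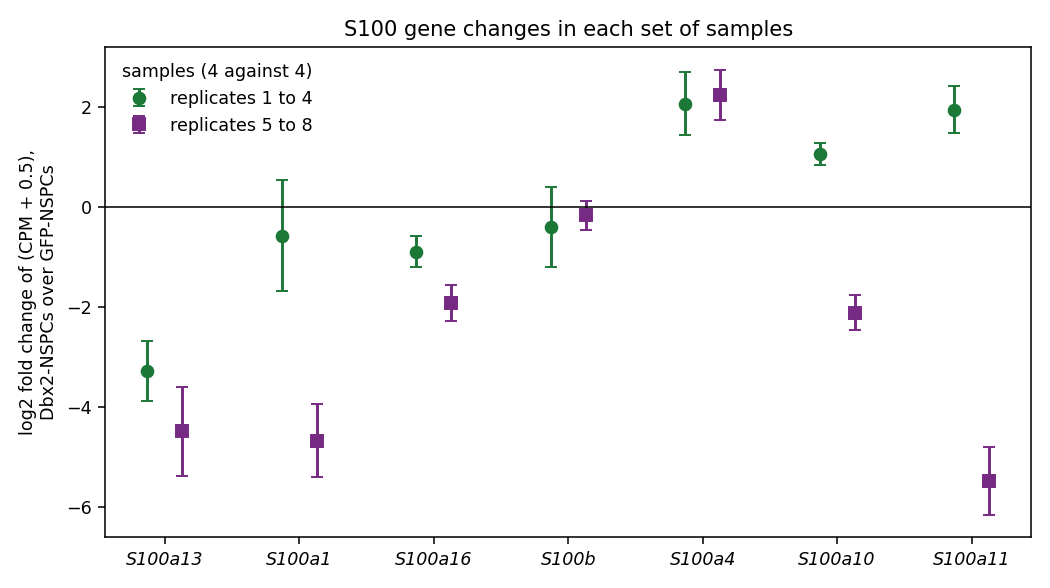
Log2 fold change of Dbx2-NSPCs over GFP-NSPCs on the scale of log2(CPM + 0.5), in replicates 1 to 4 (green circles) and replicates 5 to 8 (purple squares), with 95% limma intervals and 4 samples against 4 at each point. S100a13 and S100a16 lie below 0 and S100a4 above 0 in both sets, S100a10 and S100a11 lie on opposite sides of 0, the S100b intervals include 0, and S100a1 is apart from 0 in replicates 5 to 8. The S100a13 intervals describe the values for which that gene was chosen and are no test.

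The remaining family genes were close to absent. *S100a3*, between *S100a16* and *S100a4*, was at 0 to 0.71 CPM in *GFP*-NSPCs against 0 to 2.93 CPM in *Dbx2*-NSPCs. These were 4 reads against 26, a ratio of 6.03 with a 95% counting interval of 2.09 to 23.8. It passed the filter only through 4 *Dbx2*-NSPC samples, the group in which it is higher, so the values are a description with no test. *S100a14* had 2 reads and *S100a8* had 1 read over all libraries, and *S100a2*, *S100a5*, *S100a7a*, *S100a9*, *S100g* and *S100z* were listed at 0 in every sample.

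Control cells alone, which carry no *Dbx2* transgene, already differed between the sets in part of the family. From replicates 1 to 4 to replicates 5 to 8 of *GFP*-NSPCs, *S100a1* was higher by 1.78 on the log2 scale (SE 0.441, limma adjusted p = 0.00325) and *S100a4* lower, at -0.85 (SE 0.264, limma adjusted p = 0.0171). *S100a6* was also called lower (limma adjusted p = 0.0259), on the reads of *GFP*-NSPC replicates 2 and 4. That makes 1 of 7 paralogs higher and 2 lower, against 15.1% and 13.5% of all tested genes (28.6% in either direction). The value for *S100a4* lost its call without *GFP*-NSPC replicate 1 (limma adjusted p = 0.0657) or replicate 2 (limma adjusted p = 0.0760). *S100a10* differed by -0.01 between the control sets, with a 95% interval of -0.29 to 0.27 (limma adjusted p = 0.976), and *S100a16* by 0.09 with an interval of -0.24 to 0.43 (limma adjusted p = 0.713). *S100a11* was at 0.68 (SE 0.260) and did not pass the test (limma adjusted p = 0.0538). *S100a13*, which is not counted among the 7 paralogs, was at 0.61 (SE 0.366). As stated above, that SE includes the spread of *Dbx2*-NSPC samples near the floor, and the value is given as a description.

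Over the 2 sets together, the difference of the transgene contrast was called for 4 of the 7 paralogs, all with a lower fold in replicates 5 to 8 (*S100a1*, *S100a10*, *S100a11* and *S100a16*), against 5.04% of all genes in that direction, 4.4% in the other and 9.44% in either. For *S100a13* the same difference was -1.21 on the log2 scale, given with no test. The line pair, the day of culture, the *Dbx2* levels of each set and any other property that goes with the numbers cannot be told apart as the source of these differences.

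The neighbourhood of *S100a13* was read from the 13 other tested genes that start within 250 kb of it, of which 5 are S100 genes. Of the 8 genes that are not, 1 was called lower and 0 higher over all samples, beside 7.78% and 8.03% of all tested genes, with a median log2 fold change of -0.20. The gene called was *Npr1*, a receptor for natriuretic peptides that starts at -48.6 kb from the start of *S100a13*, with a log2 fold change of -1.40 (SE 0.243, limma adjusted p = 4.85e-04). *Chtop*, at -4.94 kb and the nearest of the 8, was measured at -0.15 on that scale (limma adjusted p = 0.171), and *Snapin*, *Ilf2*, *Ints3*, *Slc27a3*, *Gatad2b* and *Dennd4b* lay between -0.30 and 0.20 and were not called over all samples. Among the 8, 2 were called lower in replicates 5 to 8, *Npr1* and *Gatad2b* (-0.32, limma adjusted p = 0.00563), beside 11.7% of all tested genes. Over all samples, the neighbours called in this stretch were *S100a1*, *S100a16*, *S100a4* and *Npr1*, with *S100a4* in the direction opposite to the rest. *S100a3* is left aside here, because it passed the filter only through *Dbx2*-NSPC samples. Around *S100a10* and *S100a11*, each was the only tested gene within 250 kb of the other.

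**Figure D4:**
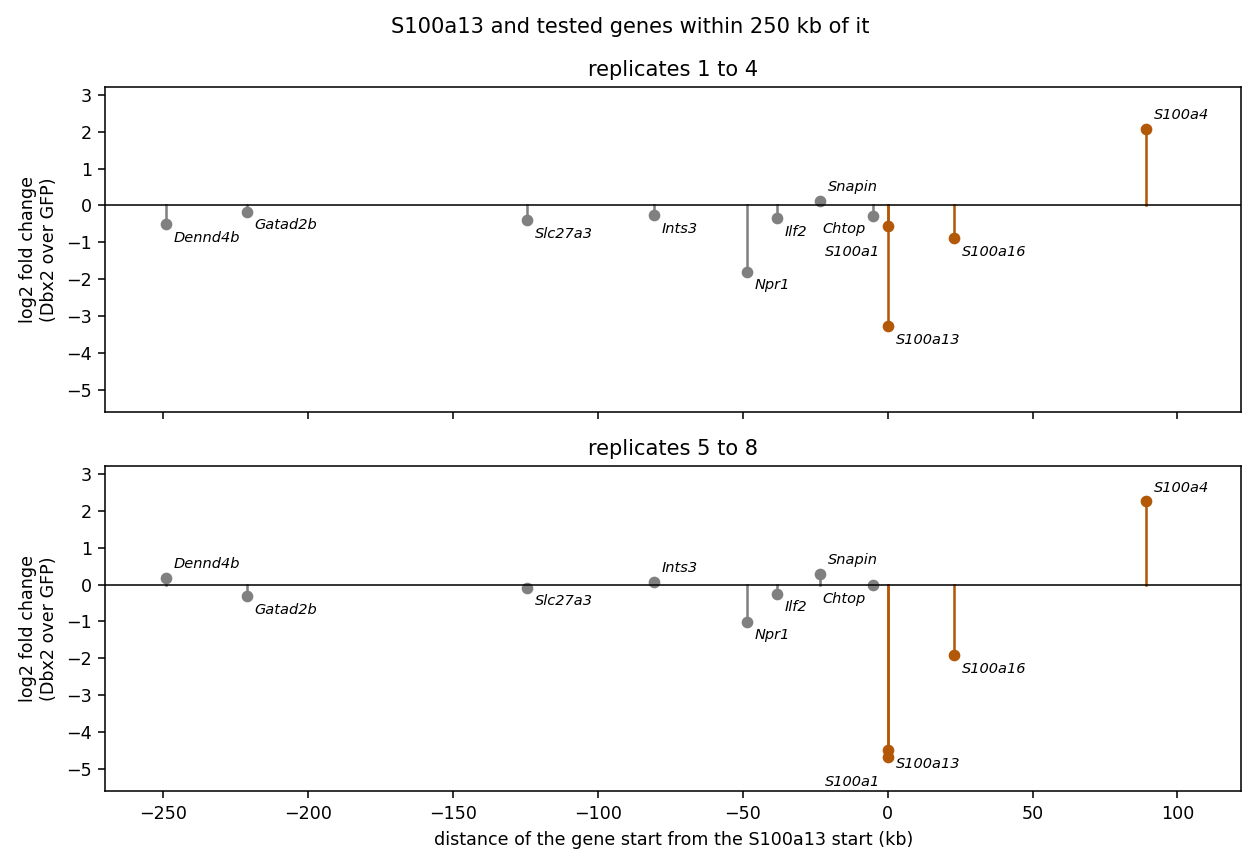
Log2 fold change of Dbx2-NSPCs over GFP-NSPCs for S100a13 and the tested genes around it, against the distance of each gene's start from that of S100a13 in kb, with S100 genes in orange and other genes in grey, for replicates 1 to 4 (upper panel) and 5 to 8 (lower panel). S100a13 stands out below its neighbours in the upper panel, S100a1 lies beside it in the lower panel, and S100a4 is above 0 in both. S100a3 and S100a6 are left out because of their few reads.

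Levels that followed *S100a13* most closely over the 16 samples, searched among the 8938 genes that averaged 10 CPM or more in either transgene group, were those of *Cacng5* (Pearson r = 0.954), *Cxxc5* (0.9523), *Tmtc2* (0.9522), *Nxph1* (0.9512) and *Dach1* (0.9453). None of them lies on chromosome 3. *Dach1*, a transcriptional regulator, averaged 22.6 ± 6.83 CPM with the *GFP* transgene and 0.0375 ± 0.106 CPM with *Dbx2*, and *Nxph1*, a secreted ligand of neurexins, at 80.7 ± 10.3 and 11.99 ± 3.72 CPM. Within the family, *S100a13* went with *S100a16* (r = 0.848) and *S100a1* (r = 0.786), against *S100a4* (r = -0.83), and little with *S100b* (r = 0.272). Searches of the same kind, added after the values had been seen, placed *Smoc1* (r = 0.9569) and *Plekha2* (r = 0.9528) next after *S100a11* for likeness to *S100a10*. *Smoc1*, a secreted calcium binding protein, went from 65.2 to 130 CPM on average in replicates 1 to 4 and from 22.2 to 0.748 CPM in replicates 5 to 8. These correlations rest on the same 4 groups of samples and describe them only.

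The genes that S100 proteins act on were read from a list of 30 partners and receptors, of which 26 were tested. Over all samples, 4 were called higher and 1 lower, beside 8.03% and 7.78% of all tested genes, with a median log2 fold change of 0.04 against -0.022 over all genes. There were 7 higher and 2 lower in replicates 1 to 4, beside 8.19% and 7.37% of all tested genes. In replicates 5 to 8 there were 4 higher and 4 lower, beside 11.5% and 11.7%. *Fgf1*, the growth factor whose release *S100a13* takes part in, rose from 14.4 ± 8.53 to 69.0 ± 7.90 CPM (SD over 8 samples), with a log2 fold change of 2.44 (SE 0.280, limma adjusted p = 6.88e-06). It therefore moved opposite to *S100a13*, in replicates 1 to 4 from 7.08 to 75.7 CPM and in replicates 5 to 8 from 21.7 to 62.4 CPM. *Gfap*, a filament protein bound by *S100b*, rose by 3.31 (limma adjusted p = 3.54e-04), and *Kcnk3*, a potassium channel brought to the membrane by *S100a10*, rose from 1.12 ± 1.299 to 7.31 ± 2.27 CPM, by 2.53 (limma adjusted p = 8.14e-05). *Dlc1*, a RhoGAP that binds *S100a10*, fell by 1.31 on the log2 scale (limma adjusted p = 0.00234).

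*Anxa2*, the annexin that pairs with *S100a10*, was outside the rule for naming and was looked at after its values had been seen. Its mean went from 2.53 ± 3.45 to 12.9 ± 5.12 CPM in replicates 1 to 4 (log2 fold change 2.67, limma adjusted p = 0.00907) and from 4.14 ± 0.917 to 0.26 ± 0.334 CPM in replicates 5 to 8 (-2.69, limma adjusted p = 1.88e-04), with a difference of -5.36 (limma adjusted p = 8.40e-06). Its direction was that of *S100a10* in both sets. *Mapt* was the other listed partner called in both sets in opposite directions, at -0.41 in replicates 1 to 4 and 0.81 in replicates 5 to 8, the reverse of *Anxa2*. *Ager*, the receptor for advanced glycation end products that several S100 proteins bind, was at 5.53 ± 2.42 and 4.25 ± 2.10 CPM and was not called (limma adjusted p = 0.459).

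A list of other EF-hand calcium sensors and buffers held 47 genes, of which 36 were tested. Over all samples, 10 were called higher and 3 lower, beside 8.03% and 7.78% of all tested genes, with a median log2 fold change of 0.24 against -0.022 over all genes. The median was 0.24 in replicates 1 to 4, with 12 higher and 5 lower, beside 8.19% and 7.37% of all tested genes. It was 0.03 in replicates 5 to 8, with 10 higher and 3 lower, beside 11.5% and 11.7%. *Sparc*, a secreted matrix protein, rose from 351 ± 77.2 to 1026 ± 366 CPM, by 1.49 (SE 0.192, limma adjusted p = 2.42e-05), and its relative *Sparcl1* rose by 1.77 (limma adjusted p = 0.0250), with 3.54 in replicates 1 to 4 and 0.01 in replicates 5 to 8. *Kcnip1*, a sensor that attaches to potassium channels, fell from 21.4 ± 3.363 to 3.51 ± 4.45 CPM, a log2 fold change of -3.01 (SE 0.407, limma adjusted p = 4.18e-05). *Pvalb*, the calcium buffer parvalbumin, is counted among those called higher, at levels of 0.43 ± 0.451 and 2.004 ± 1.19 CPM, close to the floor. In *GFP*-NSPCs it averaged 0.39 CPM in replicates 1 to 4 and 0.47 CPM in replicates 5 to 8. It therefore reached the filter through *Dbx2*-NSPC samples, the group in which it is higher, and its values are a description with no test.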

How the data were processed

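RNA of 16 NSPC samples was made into QuantSeq 3′ libraries from 100 ng of total RNA each and read in single-end mode over 101 bases. Per the study's methods, bbduk was used for trimming and STAR 2.5.0a for alignment to GRCm38 with Ensembl 96 annotation, and the authors deposited 1 table of CPM, rounded to 2 decimals, for 30386 genes. FastQC 0.11.8 and edgeR 3.36 are also named in the submitters' processing notes. The tool and strand of the counting are not given in the sources used here. Deposited columns summed to 999484.7 to 999613.8 CPM, and whole reads were recovered for 99.99212% to 100% of the values above 0 (tolerance 0.006 CPM). No column was left out (0 not used).

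The 8 genes were taken by symbol, and samples were grouped by the transgene in the labels. The members, lists and sets of samples were chosen with earlier results of these data known. A gene was tested where 4 or more of the 16 samples exceeded 1 CPM, which kept 12533. Values of log2(CPM + 0.5) were fitted in limma 3.58.1 (R 4.3.3, lmFit, eBayes with trend, 2-sided), with Benjamini-Hochberg adjustment over all of them and 0.05 as the threshold. Single members other than *S100a13* were also tested by exact permutation of all splits of 8 against 8 (2-sided, smallest p 0.000155) with scipy 1.17.1. The text names the 8 members, the other S100 genes, up to 4 called genes of each list with the largest fold, the 5 genes most correlated with *S100a13*, and the tested genes within 250 kb of it. Same-numbered *Dbx2*-NSPC and *GFP*-NSPC samples deviated together from their group means, with correlations from 0.1519 to 0.3027 (n = 8 pairs). Samples with other numbers of the same set did so nearly as much (0.124 to 0.2857), so this reflects the sets more than the single numbers. Centred on group and set, same-numbered pairs ran from -0.0074 to 0.1187 (mean 0.0403), and other numbers of the same set from -0.1059 to 0.1191. There, 1 of the 8 numbers had its own partner highest, so the numbers were not taken as pairs in the main fit. The study describes the samples of a line as independent experiments, so p-values measure the spread between cultures of few lines.

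Alternatives were other pseudocounts, filters and scalings, the replicate block, the set as a covariate, each sample left out, and count models of the recovered reads in edgeR 4.0.16 or DESeq2 1.42.0. Each tool was tested on simulated data. Positions came from GENCODE M21 and promoter windows from RefSeq (GRCm38.p6). Tables and plots used Python 3.11.15, numpy 2.4.6, pandas 2.3.3 and matplotlib 3.10.9.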

Additional observations from a re-analysis of the deposited data

Results flagged for a closer look

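*S100a6* in *GFP*-NSPC replicate 4, at 7.33 CPM against a group median of 0, and *S100b* in *GFP*-NSPC replicate 1, at 54.39 CPM against a group median of 24.7, each stood far from the other samples of their group. The gap to the nearest sample was 0.711 and 0.733 of the whole range, over Dixon's critical value of 0.526 for 8 samples. These were 2 of 16 groups of samples looked at, and chance gives about 1 in 20.

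The transgene contrast differed between replicates 1 to 4 and replicates 5 to 8 by a test of the difference itself for 4 paralogs. The log2 differences were -4.10 for *S100a1*, -3.17 for *S100a10*, -7.43 for *S100a11* and -1.02 for *S100a16*. For *S100a10* and *S100a11* the contrast changed direction, and every *Dbx2*-NSPC sample of one set lay above, and of the other set below, its *GFP*-NSPC samples.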

How the results depend on the processing

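The calls of the 7 paralogs kept their direction and side of the threshold over all samples, within each set and for the difference between the sets, under every pseudocount, scaling, filter and tool run and without any single sample, wherever a paralog was tested. With a mean of at least 10 CPM required, *S100a1* and *S100a6* were not tested, and 1 paralog was called lower over all samples and 3 in replicates 5 to 8. The replicate block changed no member's call, with *S100a1* at an adjusted p of 0.0100 under it, and 2723 genes called in place of 1982. With the number set as a covariate 3034 genes were called, and edgeR on recovered reads called 1928. The pooled values of *S100a10* and *S100a11*, neither past the threshold, changed sign to 0.26 and 0.67 with edgeR and to 0.26 and 0.65 with DESeq2. With the number set as a covariate, edgeR gave -0.29 and -0.13. The ratios of mean CPM, *Dbx2*-NSPCs over *GFP*-NSPCs, were 1.16 and 1.53. The cause of the change of sign was not tested. The log2 fold change of *S100a13* moved with the pseudocount, at 0.1 and 2, between -4.52 and -2.91 over all samples and between -5.41 and -3.31 in replicates 5 to 8, was -2.51 with 2 in replicates 1 to 4, and its difference between the sets was -1.79 with 0.1.

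The set difference within *GFP*-NSPCs was less stable. With a pseudocount of 2 and with edgeR, 2 paralogs were called higher, *S100a11* being added (adjusted p = 0.0268 and 0.0267). Leaving out samples, chosen as an alternative after the data were seen for this and for the difference of contrasts, gave 1 to 2 paralogs higher (2 without *GFP*-NSPC replicate 1 or 7) and 0 to 2 lower (0 without replicate 2, and 1 without replicate 1, 4, 6 or 7). Values near 0 that were never called changed sign: within *GFP*-NSPCs *S100b* was 0.0011 with a pseudocount of 0.1 and ran from -0.22 to 0.37 without single samples, *S100a10* from -0.053 to 0.048 and *S100a16* from -0.0074 to 0.20, and the difference of contrasts of *S100b* ran from -0.14 to 0.46 and that of *S100a4* from -0.017 to 0.44. Depth limits *S100a6*, *S100a3* and the remnants of *S100a13*, *S100a1* and *S100a11*, which rest on few reads.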
